A study of Homo sapiens with 14 samples.

Results

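Genes of the translation machinery gave rise to 180 of the 11227 circRNAs listed in 6 subcellular fractions of HepG2 cells, which is 1.60%. A circRNA was counted here when both of its ends lay inside the RefSeq span (hg38) of a protein-coding gene for an initiation factor (symbols starting with EIF), an elongation factor (EEF), a La-related RNA-binding protein (LARP) or an aminoacyl-tRNA synthetase (symbols ending in ARS1 or ARS2, and EPRS1), or of GCN1 or ABCE1. Of 114 such genes, 58 hosted at least 1 circRNA and 56 hosted none. The rule goes by gene symbol and uses no read value, although it was drawn up with earlier results of these data known.

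HepG2 is a human liver cancer cell line, and all groups are its subcellular fractions, with no treatment given in the labels: ribosome, cytosol, nucleus, cytoplasm, exosome and whole cell, with 2 samples each. The 2 mitochondrial samples of the series were not analysed here. Total RNA was made into strand-specific libraries after removal of ribosomal RNA, a step that the exosomal RNA alone did not receive, per the labels' protocols. The labels name neither the way each fraction was prepared nor separate cultures behind the 2 samples of a fraction, so the p-values measure a spread between samples that may be technical.

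Translation starts when initiation factors place the ribosome on an mRNA, goes on with elongation factors that bring in charged tRNAs and move the ribosome, and draws on tRNA synthetases that load each tRNA with its amino acid. Among LARP proteins, LARP1 and LARP4 bind mRNAs and set their stability or their translation. GCN1 sits on stalled or collided ribosomes and helps to activate the kinase GCN2, which EIF2AK4 encodes. A circRNA arises when a downstream splice site is joined back to an upstream one, and the reads counted here span that back-splice junction. They report circular RNA from these genes, not their mRNAs or proteins.

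The values are whole-number junction reads per library and levels in RPTM, which is reads per 10000000 reads of the library. A circRNA absent from a table is called unlisted, because a caller's entry exists only if each of the 2 libraries has a read. Unlisted is therefore not a measured 0. Unlisted entries entered the fits as 0 reads, so calls against them are counted apart. No fold change of a single circRNA that rests on them is given. The medians of all tested circRNAs under the implied library totals include such entries. The 12 libraries held 2301 to 72415 circRNA reads on implied totals of 65621592 to 104135791 reads, with the fewest in the exosome libraries. Between the 2 libraries of a fraction, counts scattered 1.21 to 2.37 times as much as counting error alone gives (chi-square per degree of freedom), most in the ribosome fraction. Of 12 hepatocyte genes looked up as a check of the cell line, ALB and APOB hosted a circRNA in the cell table, and the tables hold no linear RNA for a fuller check. In bulk samples, fewer cells that carry a circRNA and less of it per cell cannot be told apart.

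The ribosome table listed 49 of the 180 circRNAs, 1.69% of its 2899 entries (95% Wilson interval 1.28 to 2.23). The cytosol table listed 76 (1.49%, 1.19 to 1.86), the nucleus 21 (1.61%), the cytoplasm 104 (1.49%), the exosome 10 (2.26%, 1.23 to 4.11) and the cells 87 (1.63%). The intervals cover counting error only, and those of ribosome and cytosol overlap. Most of these circRNAs were rare: 122 had at most 5 reads in every library, and 31 reached 10 reads in at least 1. A single table listed 98 of them (54.4%, against 52.6% of all circRNAs), and 4 were in all 6 tables, 1 each from GCN1, IARS1, LARP4 and RARS1.

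In reads, the translation gene circRNAs held 0.959% and 0.880% of the circRNA reads in the 2 ribosome libraries (263 and 173 reads), against 1.44% and 1.26% in the 2 cytosol libraries (877 and 750 reads). Both ribosome libraries lay below both cytosol libraries, and below both cytoplasm libraries at 1.03% and 1.11%. Nuclear libraries held 1.29% and 1.29%, above the cytoplasm. That order depended on the caller, since with the reads of the caller headed CIRC alone the nuclear share lay below the cytoplasmic one. Exosome libraries held 2.0% and 1.30% on 46 and 30 reads, against 1.03% and 1.09% in cells. The 2 exosome values stand apart, yet their 95% Wilson intervals overlap, at 1.50 to 2.65 and 0.915 to 1.86. With 2 libraries against 2, the exact two-sided permutation test gave p = 0.333 in each of these pairs, the smallest value the design allows.

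Summed over all members, the level was 25.5 ± 2.07 RPTM in the ribosome fraction, against 82.0 ± 14.9 in the cytosol (mean ± SD, n = 2, as for all levels below), a ratio of 0.312. It was 11.5 ± 0.246 RPTM in the nucleus against 77.2 ± 8.02 in the cytoplasm, and 4.89 ± 2.68 in exosomes against 57.6 ± 0.112 in cells. All circRNAs together also had fewer reads in the ribosome libraries (27431 and 19649) than in the cytosol (60701 and 59472). The same held for nucleus (7727 and 7235) against cytoplasm (72415 and 59323), and for exosomes (2304 and 2301) against cells (52855 and 41663). The sums in RPTM include this general fall, while the shares above are relative to all circRNA reads. The 3 leading circles of the ribosome fraction carried 27.1% of its member reads, whereas in the cytosol 2 circles of LARP1B and 1 of RARS1 carried 55.6%.

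**Figure D1:**
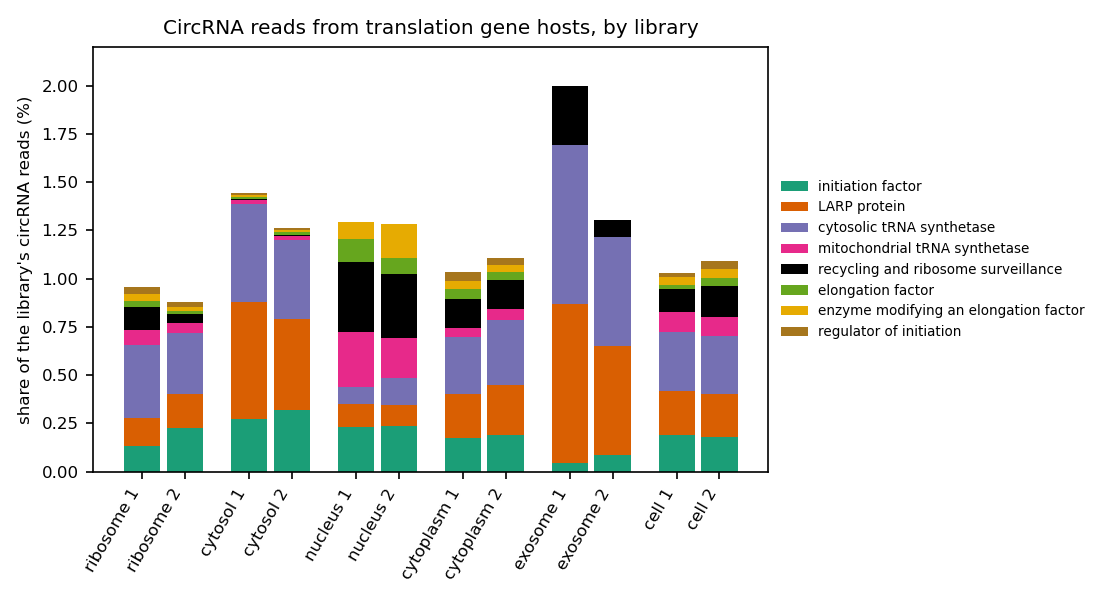
Share of each library's circRNA reads (percent, y axis from 0) that came from translation gene hosts, for the 2 libraries of each fraction, stacked by the role of the host gene. LARP and cytosolic synthetase hosts make up most of the cytosol bars, which stand at 1.44% and 1.26%, and the recycling and surveillance hosts, mostly GCN1, are visible in the ribosome, nucleus, cytoplasm, exosome and cell bars but form a thin line in the cytosol.

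The roles differed in how their circRNAs divided between ribosome and cytosol. The stacked plot of shares shows this by library. LARP hosts had 4.42 ± 0.547 RPTM in the ribosome fraction against 33.1 ± 8.63 in the cytosol, a ratio of 0.133. Initiation factor hosts had 4.97 ± 1.76 against 17.6 ± 0.522 (ratio 0.282), and cytosolic synthetase hosts 9.65 ± 1.47 against 27.7 ± 6.55 (0.349). Cytosolic synthetases thus formed the largest role in the ribosome fraction and LARP genes the largest in the cytosol, in summed RPTM.

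Mitochondrial synthetase hosts, which charge tRNAs inside mitochondria, reached 1.79 ± 0.535 RPTM in the ribosome fraction, against 1.24 ± 0.121 in the cytosol. GCN1, the only recycling or surveillance host with reads in both, had 2.38 ± 1.46 and 0.202 ± 0.0140 RPTM, a ratio of 11.8. Regulators of initiation had 0.870 ± 0.231 in the ribosome fraction against 0.558 ± 0.110 in the cytosol. These sums are descriptions and carry no test of their own. They include the lower circRNA reads of the ribosome libraries as a whole.

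Single circRNAs were tested with edgeR's quasi-likelihood test in 1 fit over all 12 libraries, so that a fold change is relative to the remaining circRNAs of each library. Of the 180 members, 77 were listed by both callers of the deposited tables in at least 1 table, and 12 of these also passed the filter. The filter weighs reads against library size, so fewer reads suffice in the small exosome and nucleus libraries. Members with more reads in the larger libraries could fail it. The other 168 are described by their reads only. The call threshold was a Benjamini-Hochberg adjusted p under 0.05, and the ± beside a log2 fold change is its approximate SE.

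Between ribosome and cytosol, 8 of the 12 tested members passed, 5 higher and 3 lower in the ribosome fraction. Over all 950 circRNAs tested, 52.7% passed, 26.6% higher and 26.1% lower. Among those listed in both tables, 7 of 9 members passed (5 higher and 2 lower), against 44.1% of 725 circRNAs. The median log2 fold change over these was 1.65 for the 9 members and 0.17 for the 725. With only the 2 fractions fitted, the 9 members that then passed the filter and were listed in both had a median of −0.70. The median thus had the other sign, but over other members, as the circles of EEF2K, EEFSEC, AARS1 and LARP4 from the main fit were not in that one. Circles of GCN1 (4.13), IARS1 (1.63) and EIF4G3 (−0.79) had log2 fold changes there close to those of the main fit. Only members that passed the filter are in these counts, and whether they differ from circRNAs at large was not tested.

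The circRNA of GCN1 with the most reads (chromosome 12, 120154970 to 120155719, minus strand, 750 bases between its ends) stood out in the ribosome fraction. It had 30 and 6 reads in the ribosome libraries (1.94 ± 1.64 RPTM) against 2 and 2 in the cytosol libraries (0.202 ± 0.0140 RPTM). Both ribosome libraries lay above both cytosol libraries, though the ribosome pair was itself far apart. In the cytosol this circle was listed by the caller headed CIRC alone. The log2 fold change was 4.13 ± 0.61 (edgeR, adjusted p = 2.0e-06). Without ribosome replicate 1 it was 2.44 (adjusted p = 0.0251). In such fits the lone library left in a fraction is assumed to vary like those of the other fractions. The GCN1 circle passed in all 15 alternative fits, at log2 fold changes of 2.44 to 4.34.

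In the other fractions the same GCN1 circle was among the most abundant members. It had 27 and 23 reads in the nucleus (2.95 ± 0.136 RPTM), against 84 and 73 in the cytoplasm (8.73 ± 0.851 RPTM). It had 7 and 2 reads in exosomes, against 58 and 62 in cells (7.06 ± 1.30 RPTM). The cytosol had the lowest mean level of this circle, but the 2 exosome libraries, at 1.07 and 0.199 RPTM, overlap the cytosol pair. A further GCN1 circle (120175162 to 120176217) had 3 and 4 reads in the ribosome fraction and 4 and 5 in the cytoplasm, and was unlisted in the cytosol.

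RARS1 encodes arginyl-tRNA synthetase, and its leading circle (chromosome 5, 168488602 to 168494650, plus strand, 6049 bases) ran the other way. It had 12 and 18 reads in the ribosome libraries (1.87 ± 0.958 RPTM) against 208 and 162 in the cytosol libraries (18.8 ± 4.61 RPTM). The groups did not overlap, and the log2 fold change was −2.45 ± 0.34 (edgeR, adjusted p = 5.1e-07). All 16 alternative fits called it lower, at log2 fold changes between −3.70 and −2.24.

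LARP1B, a relative of the mRNA-binding protein LARP1, gave the 2 LARP circles with the most reads, which share their upstream end. The longer one (chromosome 4, 128074460 to 128082305, plus strand, 7846 bases) had 5 and 4 reads in the ribosome libraries (0.515 ± 0.0708 RPTM) against 52 and 32 in the cytosol libraries (4.29 ± 1.72 RPTM). The log2 fold change was −2.05 ± 0.48 (edgeR, adjusted p = 0.000638), and it passed in all 15 alternative fits. The shorter one (128074460 to 128077962, 3503 bases) reached in the cytosol the highest level of any member in any of the 6 fractions, with 19 and 16 reads in the ribosome fraction (2.11 ± 0.210 RPTM) against 261 and 190 in the cytosol (22.9 ± 6.65 RPTM).

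The shorter LARP1B circle was listed by the caller headed CIRC alone in all 5 tables that hold it, so it lay outside the tested set. In the alternative fit over all listed circRNAs its log2 fold change between ribosome and cytosol was −2.76 ± 0.29 (edgeR, adjusted p = 5.33e-06). In the cytosol the longer circle, too, was listed by that caller alone, whereas both callers listed it in the ribosome fraction and in exosomes.

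**Figure D2:**
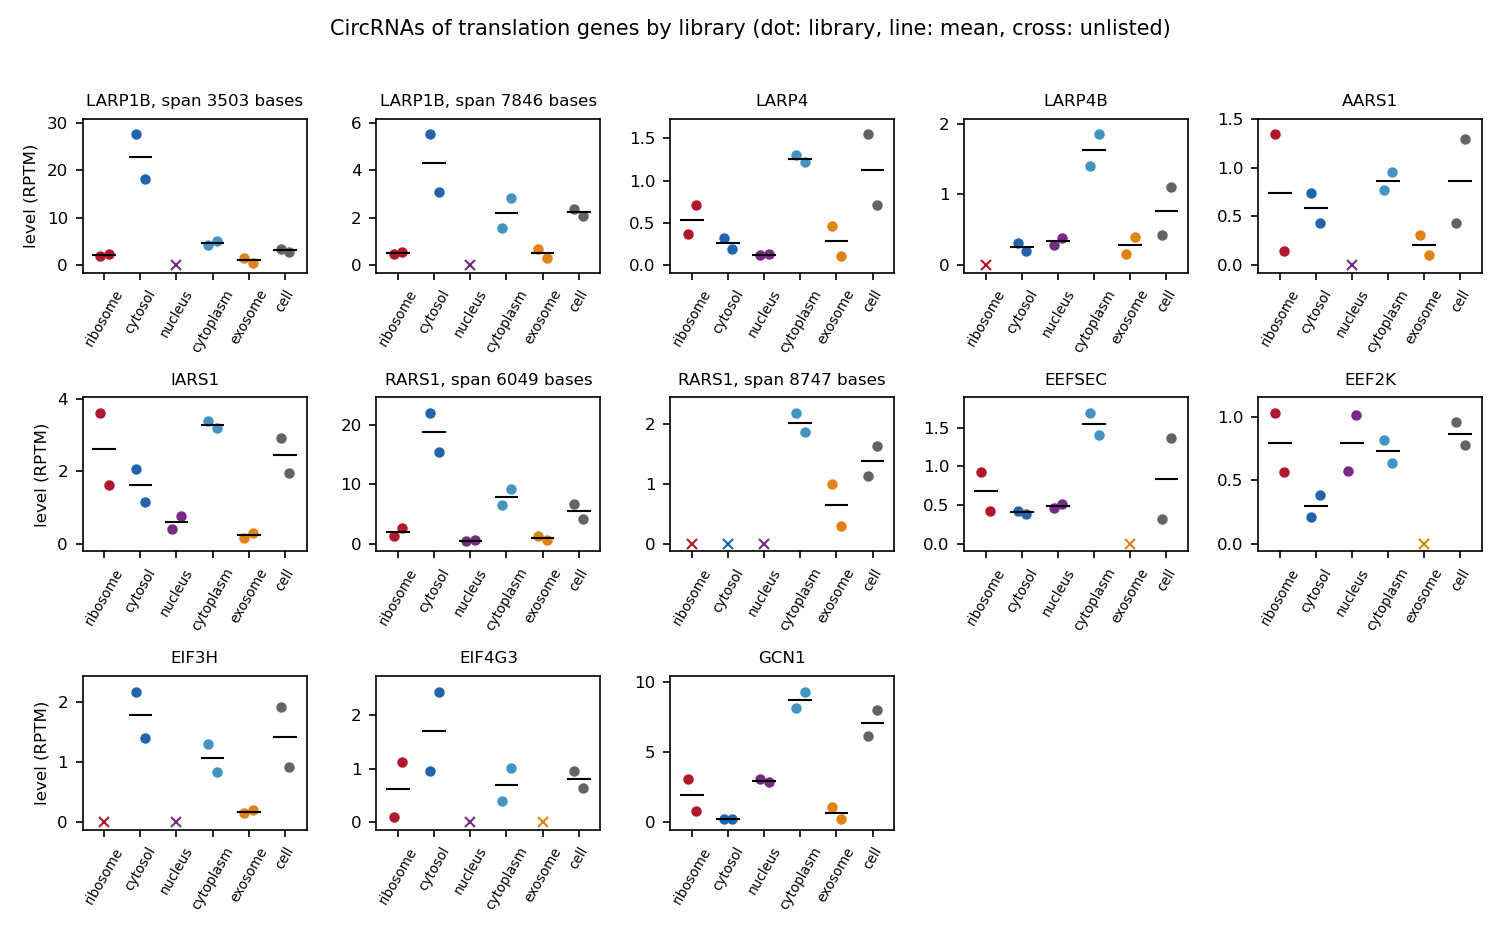
Level in RPTM (y axes linear from 0, a different scale in each panel) of the 12 tested circRNAs and of the shorter LARP1B circle in the 6 fractions, with 1 dot per library, a line at the mean of the 2 and a cross where the table does not list the circRNA. GCN1 is lowest in the cytosol, at 0.202 RPTM, whereas both LARP1B circles and the 6049-base RARS1 circle are highest there.

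IARS1, isoleucyl-tRNA synthetase, hosted the most abundant member of the ribosome fraction (chromosome 9, 92256680 to 92269983, minus strand). It had 35 and 12 reads in the ribosome libraries (2.62 ± 1.41 RPTM) against 20 and 12 in the cytosol libraries (1.61 ± 0.646 RPTM). In RPTM the 2 groups overlap, and relative to the other circRNAs of each library the log2 fold change was 1.65 ± 0.41 (edgeR, adjusted p = 0.00119). The call was lost without ribosome replicate 1 (0.53, adjusted p = 0.494), with DESeq2 (adjusted p = 0.0858) and with the implied library totals as the scale (0.75, adjusted p = 0.149).

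EEF2K, the kinase that phosphorylates and inhibits the elongation factor eEF2, had 10 and 4 reads in the ribosome libraries against 2 and 4 in the cytosol libraries (chromosome 16, 22248755 to 22251322). In the ribosome fraction, the cytosol and the nucleus this circle was listed by the caller headed Ciri alone. At 0.799 ± 0.331 RPTM in the ribosome fraction against 0.298 ± 0.122 in the cytosol, the libraries did not overlap, and the log2 fold change was 2.26 ± 0.65 (edgeR, adjusted p = 0.00428). Here too the call was lost without ribosome replicate 1 (1.31, adjusted p = 0.291), and also without cytosol replicate 1 (1.60, adjusted p = 0.0813), with DESeq2 and with the implied totals.

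A circle of LARP4, an RNA-binding protein of polyadenylated mRNAs, had 4 and 5 ribosomal reads against 3 and 2 cytosolic ones (chromosome 12, 50427762 to 50429090; 1.91 ± 0.73, edgeR adjusted p = 0.0271). A circle of EEFSEC, the elongation factor for selenocysteine, had 9 and 3 ribosomal reads against 4 and 4 cytosolic ones (chromosome 3, 128262128 to 128264781; 1.66 ± 0.69, edgeR adjusted p = 0.0418). Both rest on few reads: 9 of 14 alternative fits lost the LARP4 call and 10 of 15 lost the EEFSEC call. Leaving out any 1 of the 4 ribosome or cytosol libraries was among them. In the cytosol the LARP4 circle was listed by the caller headed CIRC alone.

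EIF3H, a subunit of initiation factor eIF3, was unlisted in the ribosome fraction and had 21 and 15 reads in the cytosol libraries (chromosome 8, 116655856 to 116658980), and was called lower (edgeR, adjusted p = 1.2e-04). It was the most abundant initiation factor circle over the 6 fractions. The 4 tested members that did not pass were circles of AARS1, EIF4G3, LARP4B (unlisted in the ribosome fraction) and RARS1 (8747 bases, unlisted in both). The AARS1 circle (chromosome 16, 70261044 to 70262524), from the alanyl-tRNA synthetase gene, had 13 and 1 ribosomal reads against 7 and 5 cytosolic ones, and differed by 1.29 ± 0.64 (log2; edgeR, adjusted p = 0.0894), or by −1.57 without ribosome replicate 1. EIF4G3, a paralog of the eIF4G scaffold, had 1 and 8 ribosomal reads against 9 and 26 cytosolic ones (chromosome 1, 21050866 to 21111383; −0.81 ± 0.67, edgeR adjusted p = 0.321). That value ranged from −3.75 without ribosome replicate 2 (edgeR, adjusted p = 0.00417) to −0.04 without cytosol replicate 2, and it passed as lower also without cytosol replicate 1 (−1.63, adjusted p = 0.0178) and with the implied library totals (−1.65, adjusted p = 0.0126).

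**Figure D3:**
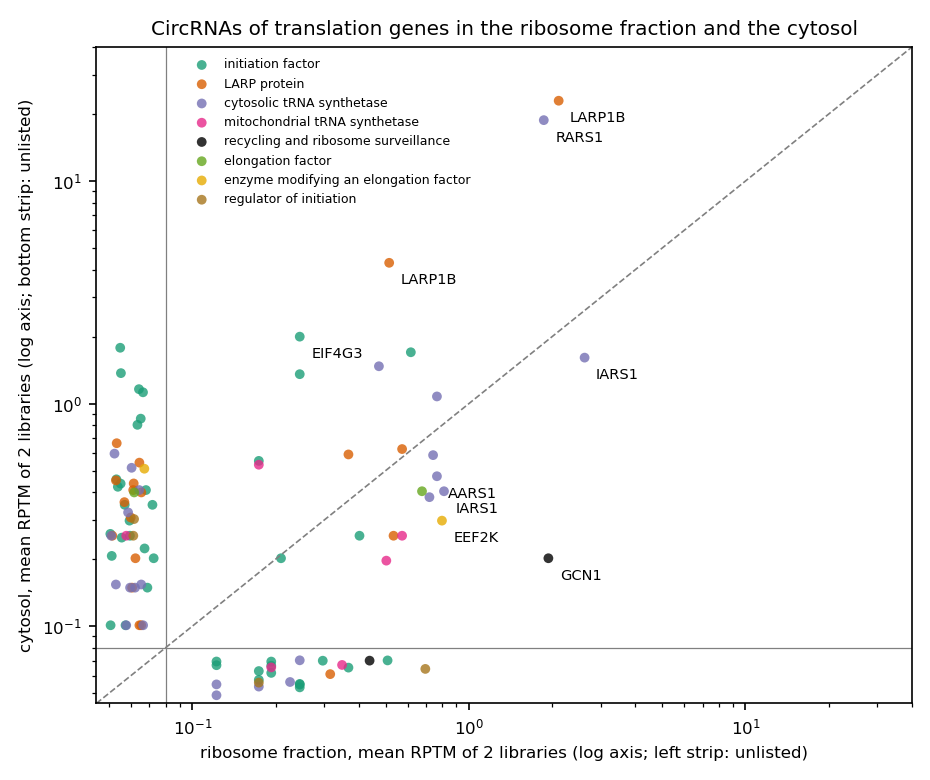
Mean level of each member in the ribosome fraction (x axis) and in the cytosol (y axis), in RPTM on log axes, coloured by the role of the host gene; the strips at the left and at the bottom hold members that 1 of the 2 tables does not list, and the dashed line marks equal levels. The LARP1B and RARS1 leaders lie far above the line, at 22.9 and 18.8 RPTM in the cytosol, and GCN1 lies far below it.

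Scaling mattered for the direction of the smaller changes. With the implied library totals as the scale the median of all 950 tested circRNAs between ribosome and cytosol was −0.71. Of these, 225 were not listed in both tables and so entered with 0 reads in at least 1 fraction. Under this scale 1 member passed as higher (GCN1) and 5 as lower, against 134 higher and 382 lower of all 950. With RLE factors 3 passed as higher and 3 as lower, against 222 and 293 of all 950. With total circRNA reads the members gave 6 and 3, against 296 and 206 of all 950. GCN1 stayed higher and RARS1 and LARP1B (7846 bases) stayed lower in the ribosome fraction under each of these.

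The rest of the ribosomal list was led by synthetases. Besides the circle already given, IARS1 had a 29160-base circle (92256680 to 92285839) with 13 and 2 ribosomal reads against 4 and 4 in the cytosol, and a 1810-base one (92268174 to 92269983) with 3 and 8 against 4 and 4. AARS1 had another circle (70258980 to 70262524) with 8 and 5 ribosomal reads against 8 and 1 in the cytosol. GARS1, glycyl-tRNA synthetase, had 8 and 5 against 9 and 13 (chromosome 7, 30621393 to 30622462). In RPTM, the ribosome and cytosol libraries of both these IARS1 circles and of this AARS1 circle overlap, so the differences were not larger than the spread between replicates, while those of GARS1 do not overlap.

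These 10 most abundant circles of the ribosome fraction came from 7 hosts, namely IARS1 (3 circles), AARS1 (2), LARP1B, GCN1, RARS1, EEF2K and GARS1. By host, IARS1 summed to 4.15 ± 1.58 RPTM in the ribosome fraction against 2.54 ± 0.675 in the cytosol, and AARS1 to 2.03 ± 1.07 against 1.16 ± 0.757. LARP1B summed to 2.63 ± 0.281 against 28.8 ± 8.69, and RARS1 to 1.99 ± 0.985 against 20.5 ± 4.95. Synthetase genes thus did not divide alike, with RARS1 at a ratio of 0.0967 and IARS1 at 1.63, although the difference between hosts was not tested.

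Among mitochondrial synthetases, FARS2 for phenylalanine had the most abundant circle over the 6 fractions (chromosome 6, 5368550 to 5369182), with 2 and 1 ribosomal reads against 6 and 5 in the cytosol. A longer FARS2 circle (5404542 to 5431172) had 7 and 3 ribosomal reads against 3 and 2. The kinase gene EIF2AK2, which encodes PKR, a double-stranded RNA sensor that phosphorylates eIF2, had 8 and 4 ribosomal reads and 23 and 15 cytoplasmic ones (chromosome 2, 37101923 to 37104132), and was unlisted in the cytosol. It was listed by the caller headed Ciri alone and so was not tested in the main set.

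Of the 49 ribosomal members, 25 (51.0%, 95% Wilson interval 37.5 to 64.4) were also listed in the cytosol, against 61.5% of all ribosomal circRNAs, and 30 (61.2%, 47.2 to 73.6) in the cytoplasm, against 71.6%. Both shares of all circRNAs lie inside the members' intervals. Conversely, 51 of the 76 cytosol members (67.1%) were not listed in the ribosome fraction, close to the 65.1% of all cytosol circRNAs. The ribosome libraries held 27431 and 19649 circRNA reads and the cytosol libraries 60701 and 59472, and the part of this depth in the lists was not tested.

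The ribosome table alone listed 9 members, 18.4% of its members, against 15.4% of all its circRNAs. Each had 1 to 3 reads per library. Initiation factor hosts gave 4: EIF3C (28723164 to 28735582; 3 and 3 reads), EIF3CL (28379729 to 28394391; 3 and 2), EIF4G3 (20840856 to 20865262; 2 and 2) and the eIF2 gamma subunit gene EIF2S3 (24062416 to 24068108; 1 and 1). The synthetase hosts were AARS1 (70276966 to 70282784; 2 and 1), the asparaginyl enzyme NARS1 (chromosome 18, 57611637 to 57615975; 2 and 2) and the mitochondrial glutamyl enzyme EARS2 (chromosome 16, 23534888 to 23552304; 1 and 2).

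The other 2 came from EIF2AK4 (chromosome 15, 39939505 to 39955768; 2 and 1 reads) and from LARP1 (chromosome 5, 154790325 to 154790710; 2 and 3), a regulator of mRNAs for ribosomal proteins. Of the 9, the LARP1 circle alone was listed by both callers. EIF3C and EIF3CL on chromosome 16 are near-identical copies, so which copy a read came from is uncertain. The cytoplasm listed an EIF3CL circle (28379729 to 28392142; 2 and 2 reads) of almost the same length as the EIF3C circle. Whether both entries stand for the same molecules was not tested. For the 9 circles, at 1 to 3 reads, a difference from the tables that do not list them was not detectable at this depth.

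The 3 hosts with most circles and the LARP1B gene differed in how their circles lay along the gene. EIF4G3 hosted 18 circles with 11 different starts and 11 different ends in a gene of 370606 bases. The ribosome fraction listed 6 of them and the cytosol 14, with 1.65 ± 0.868 RPTM against 11.8 ± 1.10 in sum, a ratio of 0.139. The nucleus and exosomes listed none. The most abundant cytosolic one (20969474 to 20981227) had 2 and 2 ribosomal reads against 26 and 14 in the cytosol, and 3 more EIF4G3 circles had 12 or more reads in both cytosol libraries with 2 and 2 ribosomal reads or no ribosomal entry.

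LARP4 hosted 14 circles, and 6 of them began at the same upstream end, 26877 bases from the 5′ end of the gene. The ribosome fraction listed 2 and the cytosol 9, at 1.11 ± 0.0320 RPTM against 3.13 ± 0.0742. RARS1 and AARS1 tied at 10 circles. Of the RARS1 circles, 5 shared an upstream end 2131 bases from the 5′ end of the gene, and in LARP1B 5 of 9 shared one at 13671 bases. Over all members, 102 (56.7%) shared an end with another member, against 59.6% of all circRNAs that shared one with any other.

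Circles with the same upstream end had very different levels. In RARS1, the 6049-base circle had 208 and 162 cytosolic reads, whereas the 8747-base circle from the same end (168488602 to 168497348) was unlisted in ribosome, cytosol and nucleus. That longer circle nevertheless had 23 and 15 reads in the cytoplasm, 7 and 3 in exosomes and 11 and 13 in cells. The cytosol libraries held 60701 and 59472 circRNA reads, against 72415 and 59323 in the cytoplasm libraries.

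**Figure D4:**
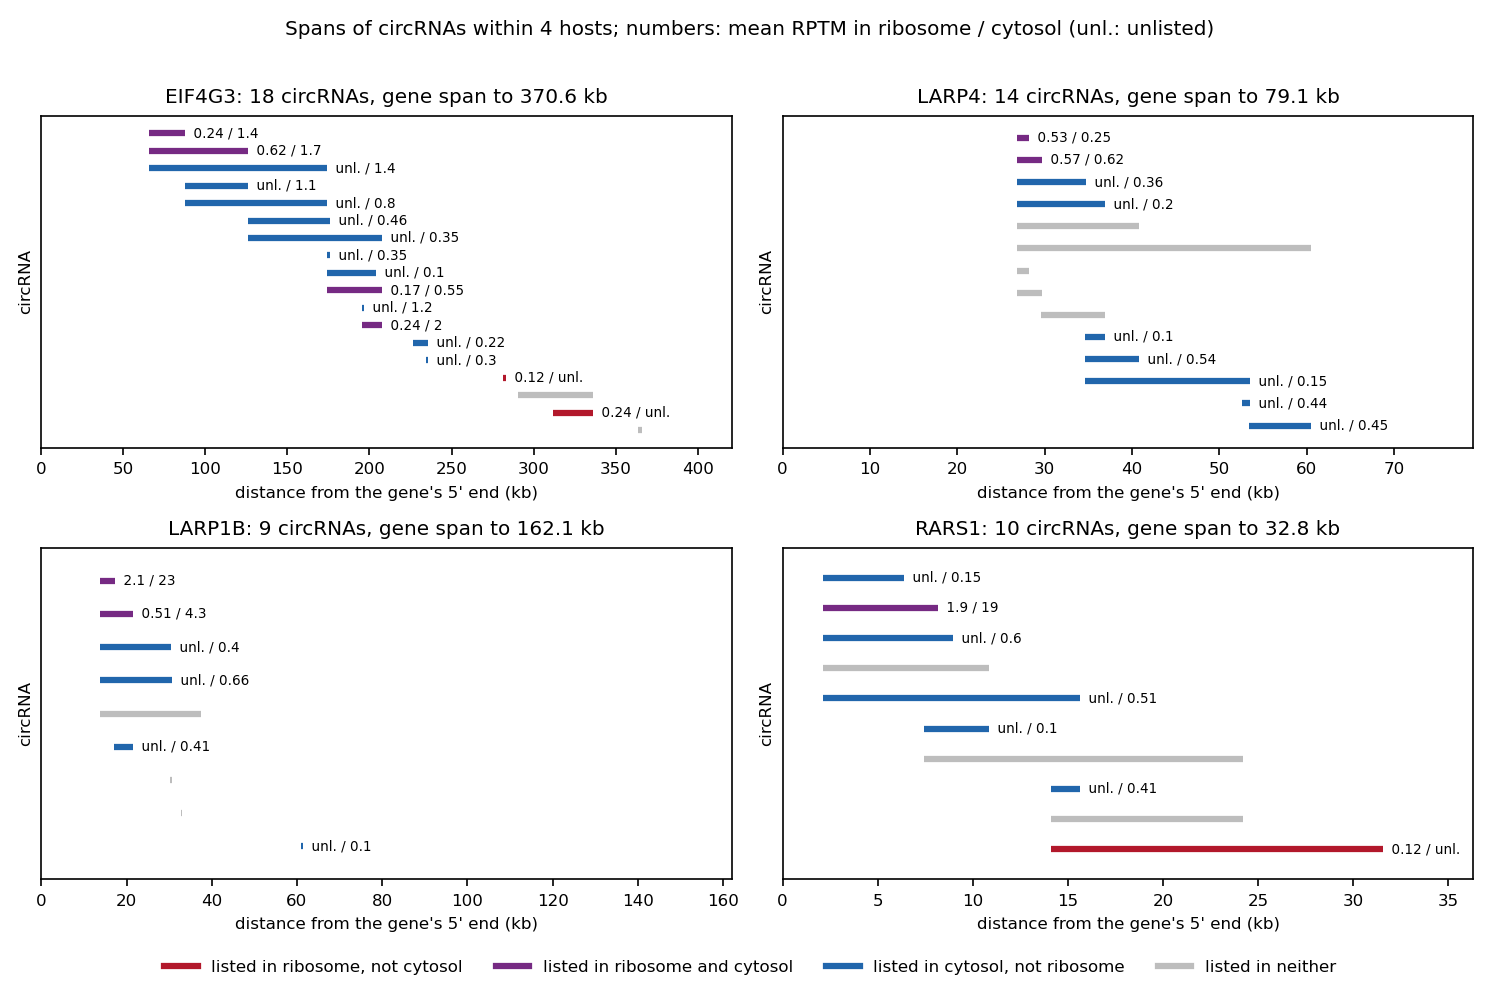
Spans of the circles of EIF4G3, LARP4, LARP1B and RARS1 as bars by distance from the 5′ end of the host gene (x axis, kb), coloured by the tables that list them, with the mean RPTM in ribosome and in cytosol beside each bar. In RARS1 and LARP1B 5 circles start at 1 upstream end, and 1 of these carries most of the gene's cytosolic level, at 18.8 and 22.9 RPTM.

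The members had short spans at the median. The distance between their ends had a median of 3306.5 bases, against 6525 over all 11227 circRNAs. Among circRNAs listed in the ribosome fraction the medians were 3503 and 5885 bases. Exons inside the circles were not analysed here, so introns are included, and the difference carries no test.

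Ribosome against cytoplasm gave a narrower picture. Here 4 of the 12 tested members passed, all lower in the ribosome fraction, against 33.1% of all tested circRNAs (14.5% higher and 18.5% lower). Among those listed in both tables, 1 of 9 members passed, against 22.6% of 782 circRNAs, with medians of 0.0030 and 0.12. With unlisted entries at 1 read in place of 0, 1 of 11 tested members passed, against 251 of all 838 circRNAs then tested. Of the 4, LARP4B (chromosome 10, 863743 to 885760; 15 and 15 cytoplasmic reads), EIF3H (14 and 7) and the 8747-base RARS1 circle were unlisted in the ribosome table. The 6049-base RARS1 circle had 12 and 18 ribosomal reads against 67 and 72 cytoplasmic ones, a difference of −0.90 ± 0.36 (log2; edgeR, adjusted p = 0.0493). This call was marginal and was lost in 7 of 16 alternative fits, among them the one without ribosome replicate 1 (−0.46) and the one with a replicate block (adjusted p = 0.0521).

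GCN1 did not pass against the cytoplasm, at 30 and 6 ribosomal reads against 84 and 73 cytoplasmic ones and a difference of −0.89 ± 0.36 (log2; edgeR, adjusted p = 0.0587), although 9 of 16 alternative fits called it lower. The ribosome fraction is compared with cytosol and with cytoplasm through the same 2 ribosome libraries, so the 2 comparisons are not independent.

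Between nucleus and cytoplasm, 6 of the 12 tested members passed, 2 higher and 4 lower in the nucleus, against 48.2% of all tested circRNAs (14.9% higher and 33.3% lower). Among those listed in both tables, 3 of 7 members passed (2 higher and 1 lower), against 31.2% of 528 circRNAs, with medians of 0.29 and 0.37. DESeq2 and unlisted entries at 1 read each called 2 members higher and 0 lower, and over all tested circRNAs 78 higher and 16 lower with DESeq2, and 120 higher and 18 lower with 1 read. EEF2K, listed in the nucleus by the caller headed Ciri alone, had 5 and 8 nuclear reads against 9 and 5 cytoplasmic ones. The filter weighs reads against library size, so this circle may have entered the tested set through its nuclear reads, the group where it was called higher. The EEF2K circle was higher relative to the other circRNAs of its library (2.49 ± 0.59, edgeR adjusted p = 0.00193), with levels of 0.795 ± 0.311 and 0.731 ± 0.130 RPTM. That call was lost without nucleus replicate 2 (1.60, adjusted p = 0.148) and with the implied totals (0.03). The GCN1 call (0.97 ± 0.35, edgeR adjusted p = 0.0242) did not last, since 9 of 16 alternative fits lost it and 2 turned its sign.

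RARS1 (6049 bases) had 3 and 4 nuclear reads against 67 and 72 cytoplasmic ones and was lower in the nucleus (−1.69 ± 0.52, edgeR adjusted p = 0.00979), a call lost in 4 of 16 alternative fits, the one without nucleus replicate 1 among them (adjusted p = 0.0564). The other 3 lower ones, from LARP1B (7846 bases), RARS1 (8747 bases) and EIF3H, were unlisted in the nucleus. With the implied totals as the scale, 11 of the 12 passed and all were lower, against 24 higher and 771 lower of all 950. The median of all 950 tested circRNAs was then −3.18, with 422 of them not listed in both tables and entered with 0 reads. The nucleus alone listed 6 members, 28.6% of its 21, against 15.1% of all its circRNAs. The mitochondrial arginyl synthetase gene RARS2 led them (chromosome 6, 87526440 to 87526780; 6 and 5 reads).

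The EIF2S3 circle at 24073601 to 24074959 on chromosome X had 3 and 5 reads in the ribosome fraction, 11 and 11 in the nucleus and 5 and 6 in cells, and was unlisted in cytosol, cytoplasm and exosomes. All its entries came from the caller headed Ciri. At 1.33 ± 0.0927 RPTM it was next to GCN1 among nuclear members.

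Exosomes listed 10 members, and the cell table listed 10 of these 10 (lower bound of the 95% Wilson interval 72.2%), against 83.5% of all exosome circRNAs. The exosome libraries were also the ones made without removal of ribosomal RNA, and the fraction and this step cannot be told apart. None of the 12 tested members passed between exosome and cell by edgeR, against 46% of all tested circRNAs (4% higher and 42% lower). Most circRNAs tested were unlisted in exosomes or in cells, and among those listed in both 0 of 9 members passed, against 14.3% of 329 circRNAs. The exosome libraries were the smallest, so a few exosome reads could bring a circRNA through the filter. These counts are therefore partly selected on exosome reads. Of the 12 tested members, 4 had an unadjusted p under 0.05 by edgeR, and DESeq2 called 0. The leading exosomal circles were the shorter one of LARP1B with 10 and 5 reads (1.01 ± 0.725 RPTM), the 6049-base circle of RARS1 with 9 and 6, its 8747-base circle with 7 and 3, and GCN1 with 7 and 2. Against cells, GCN1 stood at −1.20 ± 0.52 on the log2 scale (edgeR, adjusted p = 0.0585) and the 8747-base RARS1 circle at 1.27 ± 0.59 (edgeR, adjusted p = 0.0746).

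Other genes of translation are set beside the members by counts. Ribosomal protein genes hosted 32 circRNAs from 28 of 167 genes, of which 4 were tested. Between ribosome and cytosol 2 of these were higher and 1 was lower. Of the 2 listed in both tables, 1 was higher and 1 lower. A list of 92 further translation genes hosted 173 circRNAs from 52 genes, and of 19 tested, 6 were higher and 1 was lower in the ribosome fraction, against 26.6% and 26.1% of all tested. Listed in both tables were 16 of the 19, of which 3 were higher and 1 lower (25%, against 44.1%), with a median of −0.35; the other 3 were unlisted in 1 of the 2. Against the cytoplasm, 0 of the 4 and 4 of the 19 passed, the 4 all higher in the ribosome fraction, against 14.5% of all tested.

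Within the longer list, a circle of YTHDF1, a reader of methylated adenosine in mRNA, was higher (1.73 ± 0.43, edgeR adjusted p = 0.0012). A circle of IGF2BP3, an mRNA-binding protein, was lower (−2.54 ± 0.66, edgeR adjusted p = 0.0020), and so was, among ribosomal protein genes, one of the mitochondrial MRPS35 (−1.91 ± 0.59, edgeR adjusted p = 0.0077). Circles of other genes for parts of the translation machinery thus went both ways between ribosome and cytosol, as did those of the members.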

How the data were processed

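Per the file headers, the deposited tables hold junction read counts for each circRNA in each library from 2 callers, headed Ciri and CIRC, and the authors' RPTM values as ratios to library totals. The build is hg38, per the submitters' processing notes. The callers' versions and the aligner are not given in the sources used here. Tables were joined on chromosome, start and end. Where both callers listed a circRNA, their reads were averaged and rounded. Library totals came from the exact linear relation of RPTM to reads, and what they count is not stated. Hosts came from the RefSeq gene table of GRCh38.p14 without strand. The gene strand was found for 48 hosts.

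CircRNAs listed by both callers in at least 1 table (4679) were filtered with filterByExpr (minimum count 10; 950 left) and tested with edgeR 4.0.16 (TMM, quasi-likelihood, Benjamini-Hochberg adjustment over all 950, threshold 0.05) in R 4.3.3, with 1 coefficient per fraction over 12 libraries. The SE is the absolute log2 fold change over the square root of F. The alternative test was DESeq2 1.42.0. The code was tested on simulated data. The labels do not say whether samples with the same replicate number belong together, and the main fit did not pair them.

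Members and lists were chosen with earlier results of these data known. Named are members that passed a test, the 10 most abundant in the ribosome fraction, the leader of each role, members listed in the ribosome table alone and the 3 hosts with most circles. LARP1B, the mapped hosts, the further circles of GCN1, FARS2, EIF4G3 and EIF2S3, RARS2, the exosomal leaders and the genes named from the other translation lists were chosen after their values were seen. No junction sequence is given, as no genome was used here.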

Additional observations from a re-analysis of the deposited data

How the results depend on the processing

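The number of members called moved by more than 1.5 times under these settings. Over all circRNAs tested between ribosome and cytosol, no filter called 1832 of 4679 (581 higher, 1251 lower). At least 5 reads in 2 libraries called 1365 of 2630 (322 higher, 1043 lower), and DESeq2 262 of 950 (122 higher, 140 lower). Most of these were lower, as were most members called, in place of 5 higher and 3 lower. Over all circRNAs the same settings called 1560, 1146 and 117 between ribosome and cytoplasm, and 829, 805 and 94 between nucleus and cytoplasm. In members, the number between ribosome and cytosol (8 in the report) was 29 of 77 with no filter (12 higher, 17 lower), 15 of 38 with at least 5 reads (5 higher, 10 lower) and 4 of 12 with DESeq2 (1 higher, 3 lower). It was 6 to 11 with 1 library left out, 7 without ribosome replicate 1 (2 higher, 5 lower). Between ribosome and cytoplasm (4) it was 21, 16 and 2 under the same settings, 1 with unlisted circRNAs entered as 1 read, and 3 to 5 with 1 library left out. Between nucleus and cytoplasm (6) it was 15, 12 and 2, 11 with implied totals and with all listed circRNAs, 2 with unlisted circRNAs at 1 read (both higher, as with DESeq2) and with only the 2 fractions fitted (1 higher, 1 lower), and 1 to 10 with 1 library left out: 1 without nucleus replicate 1, 10 without cytoplasm replicate 1. Between exosome and cell (0) it was 1 with RLE (higher), 4 with total circRNA reads (4 higher; all tested 149 higher and 11 lower), 11 with implied totals (11 lower; all tested 11 higher and 841 lower), 2 with at least 5 reads, 3 and 1 with Ciri and CIRC alone, 1 with unlisted circRNAs at 1 read, and 0 to 3 with 1 library left out.

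The replicate block gave 8, 4, 6 and 1 members called in the 4 comparisons. Deviations of libraries with the same number had correlations of −0.02 to 0.08. Most counts were low and the libraries had been scaled, so this cannot tell whether same-numbered libraries share a culture. The block ended the RARS1 call against the cytoplasm and added GCN1 there (−0.91, edgeR adjusted p = 0.0463).

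Signs turned for AARS1 between ribosome and cytosol with 1 library left out (−1.57 to 1.32; −1.57 without ribosome replicate 1), and for GCN1 between nucleus and cytoplasm with implied totals (−1.53) and all listed circRNAs (−0.0085). The cause was not tested.

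The mean share of circRNA reads (0.920% ribosome, 1.35% cytosol, 1.29% nucleus, 1.07% cytoplasm, 1.65% exosome, 1.06% cell) was, in that order, 0.729, 0.840, 1.23, 0.860, 1.07 and 0.905% with Ciri alone, and 1.19, 1.97, 1.20, 1.50, 2.64 and 1.53% with CIRC alone. The nuclear share was thus above the cytoplasmic one with Ciri alone and below it with CIRC alone. With circRNAs of both callers the mean share was 1.06% in ribosome, 1.33% in cytoplasm and 1.41% in cell. Without the 3 members of most cytosolic reads, an alternative chosen after seeing the data, it was 0.757, 0.601, 1.24, 0.871, 0.825 and 0.867%. Members removed for their cytosolic reads lower the cytosol share by construction, so this says nothing of the order of the fractions.

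Limits: 168 of 180 members failed the filter, which weighs reads against library size, or had no table in which both callers listed them. Exosome and nucleus libraries held few circRNA reads, and no level below 1 read in either library can be read from the tables.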

Other observations

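A pair of mirrored circles was listed in the near-identical genes EIF3C and EIF3CL, both with 364 bases between their ends. In the ribosome fraction the caller headed CIRC listed the EIF3C circle (28731829 to 28732192) with 2 and 2 reads and the caller headed Ciri listed the EIF3CL circle (28383118 to 28383481) with 2 and 2 reads. In cells it was the other way round, with Ciri at EIF3C (2 and 3 reads) and CIRC at EIF3CL (3 and 2 reads). Whether both entries stand for the same molecules was not tested.

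A few members differ from another member by a few bases at 1 end and count here as separate circles. LARP4 had circles starting at 50427762 and at 50427765 with the same downstream end at 50429090, and the same pair of starts with an end at 50430570. EIF5A, grouped here with initiation factors by its symbol, encodes a factor that helps ribosomes past difficult stretches. It had circles ending at 7311320 and 7311321.

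Of the 49 ribosomal members, the caller headed CIRC alone listed 22, Ciri alone 11 and both 16. In the cytosol CIRC alone listed 33, Ciri alone 12 and both 31.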
